A study of Macaca mulatta with 95 samples.

Results

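Single inner cells of rhesus macaque (Macaca mulatta) blastocysts were compared between 4 cells titled as late blastocyst and 9 cells titled as hatched blastocyst, all with the title letter H. These 13 cells are among 95 single cells of the series. They were chosen by the stage and letter in their titles, with earlier results of these data known. The stage of the 4 late cells is uncertain in the labels, because the title and the stage label say late while the source name says hatched. They are called late cells here, by title, and each cell keeps the number of its title (late cells 3, 9, 14 and 15, and hatched cells 1, 3, 5, 7, 9, 10, 11, 14 and 15). The letter H is not explained in the labels, and using 1 letter keeps differences between letters out of the comparison.

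All embryos came from oocytes of hormone-stimulated females that were fertilised and grown in culture, with no treatment or genotype named that would differ between the groups. Late blastocysts, whose cavity is fully expanded, were taken near day 6, and hatched blastocysts, which have left the zona pellucida, near day 7. A membrane dye was applied to whole embryos, and inner cells are those without its fluorescence, so the gate separates cells by position and not by lineage. No label names an animal or an embryo, so the cells of a group may share 1 embryo. Each group therefore counts as 1 sample, no test between them is possible, and the ranges given are those over cells.

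Values were read as RPKM of each cell, that is reads scaled to the length of the gene and to the reads of the cell, although no unit is named. Differences are log2 ratios of the hatched over the late mean after adding 1 RPKM to each, which understates the change of low genes. A gene was taken as measured where either group had a mean of at least 5 RPKM, and as higher or lower in hatched cells at a difference of 2-fold or more. A gene that is measured through 1 group alone lies on that group's side, so a count over measured members of a list describes them and is no support for a direction. The RPKM summed over all genes ran from 624626 to 697845 in late and from 605861 to 714847 in hatched cells, and 5982 to 6564 and 4552 to 6859 genes reached 1 RPKM. Depth could only be estimated relative to hatched cell 1, at 1.27 to 1.54 times in late and 1 to 1.75 times in hatched cells. No pair of the 13 cells held identical values (0 pairs).

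The inner cell mass of a blastocyst gives rise to the epiblast, which forms the embryo proper, and to the hypoblast, which forms the yolk sac lining. FGF signalling through ERK is the best known signal in this choice, with FGF4 from epiblast precursors and the receptor on hypoblast precursors. Epiblast cells pass from a naive state, marked by factors such as KLF4, KLF17 and TFCP2L1, towards a primed state in which de novo DNA methylation and factors such as ZIC2 and OTX2 rise. The trophectoderm is the outer epithelium that makes the placenta, and its genes should be low in inner cells.

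Across all genes, 1508 of 7125 measured genes were higher in hatched cells (21.2%) and 1405 were lower (19.7%), around a median log2 ratio of -0.0096. The median over cells in place of the mean gave 1251 higher and 2051 lower, which moves the share of higher genes among those past 2-fold from 51.8% to 37.9%, and the mean of the log2 values gave 1339 and 1934 (40.9%). The 4 late and 9 hatched cells did not overlap for 85 genes that were higher (1.19%) and 133 that were lower (1.87%) in hatched cells. Without late cell 3 these counts were 128 and 209, and without late cell 15 the lower count was 200. Leaving out a cell can only keep or add separation of a gene, so a rise of such counts is built in.

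Each of the 4 late cells was most like the other late cells over 6301 genes. The Spearman correlation of late cells 3, 9, 14 and 15 with the mean of the other 3 late cells was 0.742, 0.732, 0.678 and 0.730, against 0.686, 0.635, 0.576 and 0.656 with the mean of the 9 hatched cells. Their correlation with the mean of 6 early and middle blastocyst cells of letter H (days 5 and 5.5) was 0.665, 0.668, 0.592 and 0.654. The 4 late cells thus lay about as near to the earlier as to the hatched cells, with late cells 3 and 15 slightly nearer to the hatched and late cells 9 and 14 slightly nearer to the earlier ones. Hatched cells ran from 0.641 to 0.755 with the other hatched cells, from 0.544 to 0.656 with late and from 0.500 to 0.571 with early and middle cells. These correlations are across genes of cells that share a letter, and the means rest on unequal numbers of cells. Early and middle cells also had a higher summed RPKM, at 836052 to 1000590, than late and hatched cells. Their top 50 genes held 42.8% to 50.5% of it, against 30.0% to 34.5% in late and 30.0% to 40.0% in hatched cells. The part of these technical differences in comparisons with early and middle cells was not tested.

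**Figure D1:**
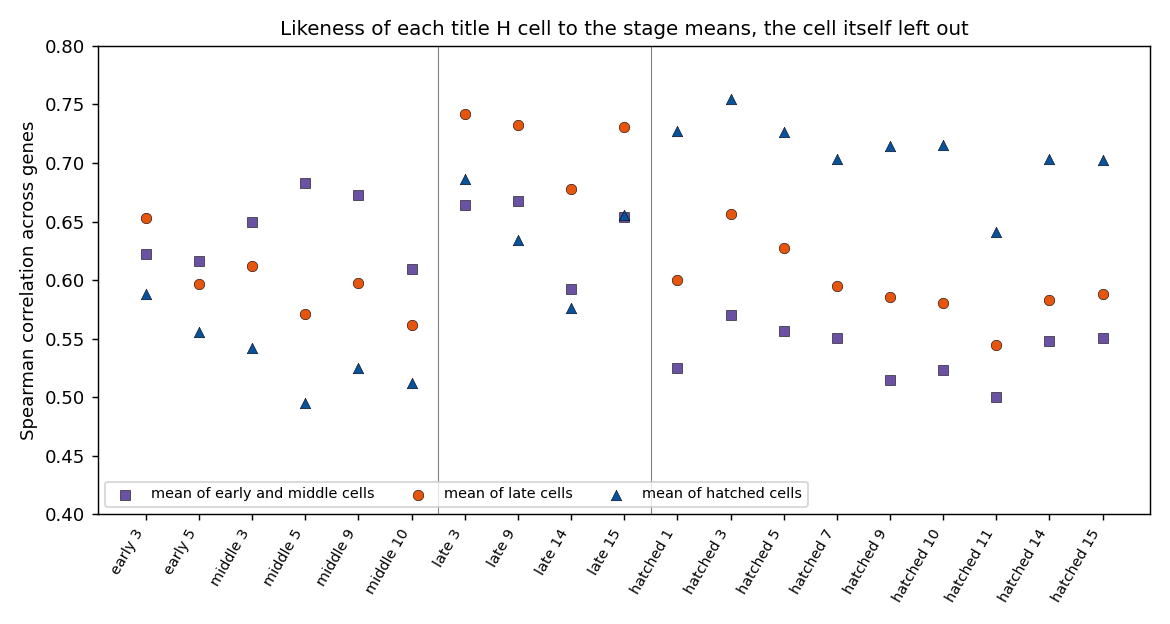
Spearman correlation across 6301 genes (vertical axis) of each inner cell of title letter H (horizontal axis) with the mean log2(RPKM + 1) profile of early and middle (squares), late (circles) and hatched cells (triangles), the cell itself left out. The 4 late cells have their highest value with the other late cells, and the 9 hatched cells with the other hatched cells.

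Of the core pluripotency factors, POU5F1 separated the groups and NANOG did not. POU5F1, the central factor of pluripotent cells, was at 1674, 1085, 489.5 and 1114 RPKM in late cells 3, 9, 14 and 15 and between 2237 and 4858 (median 2735) in hatched cells, a log2 difference of 1.48. Every hatched cell lay above every late cell. NANOG, which marks epiblast against hypoblast, was at 1208, 66.6, 26.1 and 610 RPKM in the late cells, and hatched cells ran from 285 to 1064 (median 588). Late cells 3 and 15 lay within or above the hatched range and late cells 9 and 14 below it, so the group difference of 0.39 describes neither kind of late cell. SOX2, the partner of POU5F1, was at 14.6, 6.86, 0.0248 and 9.08 RPKM in late and between 0.707 and 60.5 (median 25.4) in hatched cells, a difference of 1.80, with 7 of 9 hatched cells above every late cell.

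Of 16 measured epiblast markers 8 were higher in hatched cells and 1 was lower, beside 21.2% and 19.7% of all genes (median log2 difference 1.01). Read for each late cell alone against the hatched mean, 5 of 16 were higher for late cell 3 (32% of all genes), 14 of 17 for late cell 9 (35.7%), 12 of 16 for late cell 14 (35.7%) and 7 of 16 for late cell 15 (33.7%). The marker lower in hatched cells was FGF4, the ligand that epiblast precursors send to their neighbours. It was at 65.7 and 418 RPKM in late cells 3 and 15, was listed at 0 in late cells 9 and 14, and lay between 0 and 76.0 (median 2.71) in hatched cells. Its log2 difference of -3.12 was -0.71 without late cell 15 and -4.32 without hatched cell 14. NODAL, a ligand that sustains pluripotency, was at 35.0 RPKM in late cell 3 and at most 0.175 in the other late cells, against 0.147 to 97.8 (median 50.5) in hatched cells. Its difference was 2.07, and 5.19 without late cell 3.

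Several hypoblast genes, SOX17, GATA4 and NID2 among them, stood in the late cells unevenly and were at most 2.85 RPKM in hatched cells. SOX17, a factor of the hypoblast, was at 90.2 and 64.8 RPKM in late cells 9 and 14, at 0.0262 and 0 in late cells 3 and 15, and at most 0.134 in hatched cells. GATA4, an early hypoblast factor, was at 9.58, 25.0, 87.6 and 0.202 RPKM in late cells 3, 9, 14 and 15 and at most 0.312 in hatched cells. Late cells 3, 9 and 14 thus lay above every hatched cell for GATA4, and late cell 15 lay within their range. NID2, a basement membrane protein, was at 44.4 and 398 RPKM in late cells 9 and 14, at most 0.0626 in the other late cells and at most 2.85 in hatched cells. PDGFRA, a receptor of the hypoblast, was at 0.567 RPKM in late cell 14 and listed at 0 in the other 12 cells.

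Other hypoblast genes were present in all 4 late cells. APOA1, the apolipoprotein that hypoblast cells secrete, was at 217, 32.9, 2320 and 154 RPKM in late cells 3, 9, 14 and 15 and at most 2.74 in hatched cells. No hatched cell reached any late cell, and the log2 difference of -8.53 was -6.20 without late cell 14. HNF4A, a factor that controls such secreted proteins, was at 12.0, 23.0, 14.2 and 7.50 RPKM and at most 4.10 in hatched cells (-2.97). LAMA1, a laminin chain of the basement membrane, was at 24.3, 5.74, 16.6 and 8.81 RPKM and at most 0.987 in hatched cells (-3.58). Early and middle blastocyst cells of letter H held at most 3.81 RPKM of LAMA1, at most 38.3 of APOA1 and 2.14 to 21.0 of HNF4A, so HNF4A overlapped with the late cells there.

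Of 14 measured hypoblast markers 0 were higher in hatched cells and 11 were lower (19.7% of all genes) (median log2 difference -3.70). The summed level of the 26 markers in the table was 411, 584, 3463 and 263 RPKM in late cells 3, 9, 14 and 15 and 64.6 to 161 in hatched cells, so each late cell lay above every hatched cell. APOA1 alone made up 217, 32.9, 2320 and 154 RPKM of these late sums and at most 2.74 of the hatched ones, so the separation of late cell 15 rests on it. Early and middle cells of letter H summed to 60.2 to 292 RPKM, and late cell 15 lay within that range. The 3 members within 2-fold were APOE, a lipoprotein component (-0.70), and the matrix proteins FN1 (0.32) and COL4A2 (-0.25), which hatched cells held at up to 137, 33.8 and 30.1 RPKM. Without late cells 9 and 14, a choice made after their values were seen, 2 of 9 measured markers were higher (25.9% of all genes) and 5 were lower (19.2%) (median log2 difference -1.11). Under that choice SOX17 (0.011), NID2 (0.57), OTX2 (-0.999) and GATA4 (-2.43) were no longer measured, and of these only GATA4 still differed by 2-fold or more. With a single late cell left out, GATA4 stood at -3.53 and NID2 at -3.35 without late cell 14 and SOX17 at -4.47 without late cell 9, beside -4.86, -6.17 and -5.28 over all cells. GATA6, a further defining factor, is not in the table used here.

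**Figure D2:**
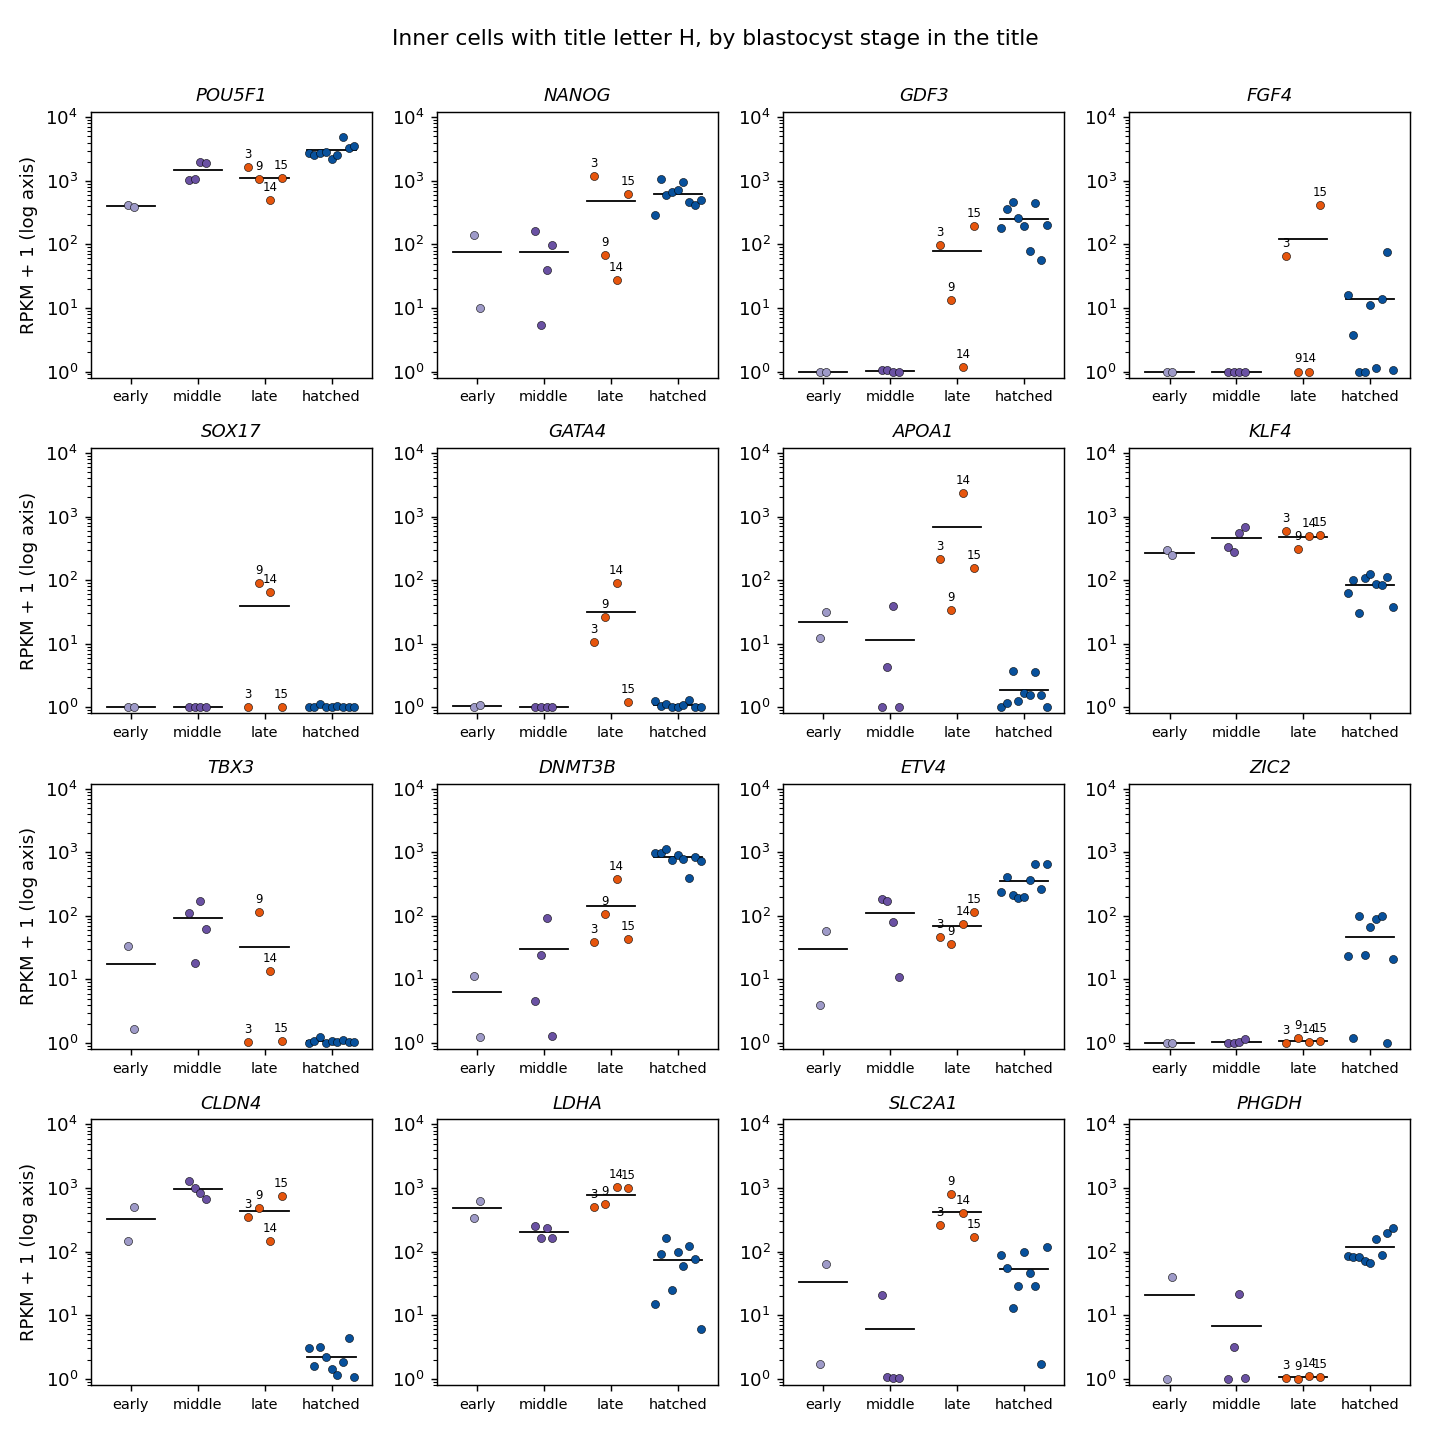
RPKM + 1 (vertical log axis) of 16 genes in each inner cell of title letter H by the stage in its title (horizontal axis), with 2 early, 4 middle, 4 late (numbered) and 9 hatched cells and a bar at the mean of each stage. Late cells 9 and 14 carry SOX17, late cells 3 and 15 carry FGF4, and all 4 late cells lie above all 9 hatched cells for KLF4, CLDN4, LDHA and SLC2A1.

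Of 17 measured naive genes 7 were lower in hatched cells and 3 higher, beside 19.7% and 21.2% of all genes. KLF4 was the only 1 of them that was lower without overlap. KLF4, a factor of naive cells that also acts in epithelia, was at 594, 312, 491 and 513 RPKM in late cells 3, 9, 14 and 15 and between 29.1 and 124 (median 87.4) in hatched cells, a difference of -2.53. All 4 late cells lay within the range of the 6 early and middle cells, 249 to 686, and all 9 hatched cells below it. TFCP2L1, a naive factor, was at 35.5, 30.7, 23.6 and 4.61 RPKM and between 0.00557 and 9.27 (median 1.75) in hatched cells (-2.48), with late cell 15 inside the hatched range. TBX3 was at 113 and 12.3 RPKM in late cells 9 and 14 and at most 0.238 in every other late and hatched cell, and its difference of -4.92 was 0.017 without those cells. Without late cell 9 alone it was no longer measured. DNMT3L, the cofactor of de novo DNA methylation, was at 664, 863, 682 and 554 RPKM and between 151 and 733 in hatched cells (-1.11), with 8 of 9 hatched cells below every late cell. Without late cell 9 it stood at -0.99.

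DPPA3, a maternal and naive-state gene, was at 2849, 1832, 1409 and 2032 RPKM in late cells and between 1151 and 2620 (median 2255) in hatched cells (-0.025), so the groups overlapped over most of their range. PRDM14, a repressor that guards the naive state, was at 55.3 RPKM in late cell 15, at most 0.229 in the other late cells and between 0 and 26.1 (median 7.05) in hatched cells (-0.78). KLF17, a naive factor of primates, was not measured, at 8.11 RPKM in late cell 15, at most 0.0782 in the other late cells and at most 15.3 in hatched cells. KHDC3L, a gene of the oocyte that is also listed as naive, was at 5151, 279, 87.1 and 3669 RPKM in late cells 3, 9, 14 and 15 and between 4269 and 7464 in hatched cells. Late cells 9 and 14 lay far below the other 11 cells for it, and its difference of 1.35 was 0.41 without them, 0.98 without late cell 9 and 0.95 without late cell 14, and 2.12 without late cell 3. Of 17 measured naive genes 3 were higher in hatched cells and 7 were lower, beside 21.2% and 19.7% of all genes (median log2 difference -0.78). For late cell 3 alone 1 of 15 was higher (32% of all genes) and 6 were lower (19.2%). For late cell 15 the counts were 2 (33.7%) and 5 (21.7%) of 15. They were 8 (35.7%) and 8 (21.5%) of 18 for late cell 9, and 9 (35.7%) and 4 (26.6%) of 16 for late cell 14.

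Primed genes were higher in hatched cells with exceptions that include OTX2. DNMT3B, the de novo DNA methyltransferase of the primed epiblast, was at 37.2, 106, 382 and 42.9 RPKM in late cells 3, 9, 14 and 15 and between 392 and 1141 (median 854) in hatched cells, a difference of 2.55. The groups did not overlap, late cell 14 came close to the lowest hatched cell, and the difference was 3.73 without it. Early and middle cells ran from 0.228 to 91.1, so late cells 9 and 14 lay above all of them. ZIC2, a factor of primed and neural cells, was at most 0.217 RPKM in late cells and between 0 and 97.4 (median 22.9) in hatched cells, with 7 of 9 above every late cell (5.44). SALL2 was at 13.7 RPKM in late cell 15, listed at 0 in the other late cells and between 0.189 and 21.6 in hatched cells (1.38), and it stood at 3.52 without late cell 15 and at 0.55 without late cells 9 and 14.

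OTX2, a factor of the primed epiblast that the hypoblast also uses, went the other way. It was at 0, 23.3, 159 and 2.08 RPKM in late cells 3, 9, 14 and 15 and at most 0.0575 in hatched cells (-5.53, and -3.21 without late cell 14). DUSP6, a phosphatase that ERK induces, was at 19.0, 30.1, 151 and 21.9 RPKM and at most 0.408 in hatched cells (-5.68, and -4.49 without late cell 14), with no overlap. Of 18 measured primed genes 12 were higher and 6 were lower, beside 21.2% and 19.7% of all genes (median log2 difference 1.84). Against late cells 3, 9, 14 and 15 alone, 11 of 16, 12 of 18, 11 of 18 and 12 of 18 were higher and 1, 4, 6 and 5 were lower, where 32% to 35.7% of all genes were higher and 19.2% to 26.6% lower. The summed level of the list was 207, 629, 1912 and 639 RPKM in late cells 3, 9, 14 and 15 and 1187 to 1660 in hatched cells, so late cell 14 lay above the hatched cells. SFRP2 was listed at 0 in late cells and was at most 2.82 RPKM in hatched cells, and FGF2 is not in the table used here.

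The ETS factors and the feedback genes that ERK signalling controls did not move one way. ETV4, a target of FGF signalling, was at 45.6, 35.5, 73.8 and 113 RPKM in late cells and between 191 and 657 (median 267) in hatched cells (2.38), with no overlap. ETV5, its close relative, was at most 0.445 RPKM in late cells and between 0 and 64.0 (median 4.27) in hatched cells (3.57, and 2.61 without hatched cell 10). DUSP6 stood opposite to both, as given above. Of 19 measured FGF and ERK genes 4 were higher and 8 lower, beside 21.2% and 19.7% of all genes (median log2 difference -0.044). FGFR2, the receptor of hypoblast precursors, was singled out after its values were seen. It was at 7.91, 48.5, 48.0 and 3.31 RPKM in late cells 3, 9, 14 and 15 and between 0 and 8.71 in hatched cells, so late cells 9 and 14 lay above every hatched cell and the other late cells within their range.

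Genes of the Nodal pathway differed in both directions. LEFTY1, an inhibitor that Nodal induces, was at 1.99, 2.78, 23.6 and 0 RPKM in late and between 0.115 and 285 (median 60.9) in hatched cells (3.62, and 5.27 without late cell 14). LEFTY2 was at most 0.328 RPKM in late cells and between 0 and 178 (median 4.38) in hatched cells (4.82, and 3.67 without hatched cell 7). These 2 genes are near-identical copies, so the split of reads between them is uncertain. FST, an activin inhibitor, was listed at 0 in all late cells and reached 60.5 RPKM in hatched cells at a median of 0.0697, and it was no longer measured without hatched cell 14. SKIL, a brake on SMAD signalling, was at 0.144, 12.5, 15.8 and 0 RPKM in late cells 3, 9, 14 and 15 and at most 1.24 in hatched cells (-2.83), and it was no longer measured without late cell 14. Of 14 measured genes 7 were higher and 5 lower, beside 21.2% and 19.7% of all genes. Their median log2 difference was 0.83, or 0.013 without hatched cell 14. The lower members beside SKIL were the receptors ACVR1B (-1.78) and TGFBR1 (-1.57) and the transducers SMAD2 (-1.61) and SMAD4 (-1.21), all overlapping between the groups. SMAD4 stood at -0.63 without late cell 14, and without late cells 9 and 14 ACVR1B stood at -0.91, SMAD2 at -0.80 and SMAD4 at -0.998, so that TGFBR1 alone of these 4 kept a 2-fold difference (-1.82).

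WNT, LIF and BMP genes were read in the same way, each count beside 21.2% higher and 19.7% lower of all genes. Of 11 measured WNT genes 5 were higher and 2 lower (median log2 difference 0.28), or 1.14 without late cell 3. AXIN2, a feedback target of WNT, was at 13.5, 1.88, 10.6 and 0.126 RPKM in late and between 0 and 102 (median 19.3) in hatched cells (2.01). TCF7L1, a repressor of WNT targets, was at 28.0, 1.04, 21.0 and 3.25 RPKM and between 6.76 and 101 (median 61.7) in hatched cells (1.77, and 2.38 without late cell 3). Both ranges overlapped. WNT5B (3.41, and 4.82 without late cell 9) and TCF7 (3.49, and 2.73 without hatched cell 10) were near 0 in most late cells. Of 10 LIF and STAT3 genes 1 was higher and 5 lower (median log2 difference -1.12). IL6R, a receptor that feeds STAT3, was at 45.3, 83.4, 62.0 and 1.95 RPKM in late cells and at most 13.7 in hatched cells (-4.04, and -5.02 without hatched cell 5), with only late cell 15 inside the hatched range. GBX2, a factor downstream of LIF in mouse cells, was at most 1.48 RPKM in late cells and between 0 and 218 (median 41.0) in hatched cells (5.40, and 4.81 without hatched cell 9). Of 8 measured BMP genes 4 were higher and 3 lower, among them the ID genes that BMP induces, with ID2 at 3.49, ID1 at 3.40 and ID3 at -3.59. ID3 rests on late cell 9 at 184 RPKM, without which it stood at -1.69, and at -0.41 without late cells 9 and 14. ID1 was no longer measured without hatched cell 15, and ID2 stood at 4.67 without late cell 15 and at 2.56 without hatched cell 11.

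Of 10 measured DNA methylation genes 3 were higher and 2 lower, beside 21.2% and 19.7% of all genes. The higher ones were DNMT3B, DNMT1 and UHRF1, and the lower ones DNMT3L and MBD2. DNMT1, the maintenance methyltransferase, was at 1.19 RPKM in late cell 14, listed at 0 in the other late cells and between 0.0114 and 31.5 (median 7.25) in hatched cells (3.24). UHRF1, which guides DNMT1, was at 0, 3.96, 3.60 and 0 RPKM in late and between 0 and 16.8 (median 10.0) in hatched cells (1.68). MBD2, a reader of methylated DNA, stood at -1.20 and at -0.97 without late cell 15. Of 21 Polycomb and chromatin genes 5 were higher (CBX7 at 2.61, KDM4C at 2.20 and CBX2 at 1.81 among them) and 2 were lower, with EED, a core Polycomb subunit, at -1.56, at -0.97 without late cell 3 and at -2.41 without hatched cell 10. CBX7 was no longer measured without hatched cell 7. The 5 of 21 lies near the background of 21.2%.

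The glucose transporters SLC2A1 and SLC2A3 and the lactate enzyme LDHA were lower in hatched cells, and PHGDH and PSAT1 of serine synthesis were higher. LDHA, which makes lactate, was at 499, 568, 1023 and 987 RPKM in late cells 3, 9, 14 and 15 and between 4.96 and 163 (median 75.3) in hatched cells (-3.40). SLC2A1, a glucose transporter, was at 262, 815, 406 and 171 RPKM and between 0.720 and 119 (median 45.3) in hatched cells (-2.95). SLC2A3, a high-affinity glucose transporter, was at 444, 425, 396 and 615 RPKM and between 28.9 and 287 (median 90.9) in hatched cells (-1.90). For these 3 genes and for TPI1, an enzyme of the pathway's middle (-1.67), no hatched cell reached any late cell. SLC2A1 was at most 62.6 RPKM in early and middle cells, below all 4 late cells, whereas LDHA ran from 160 to 632 there. Of 17 measured glycolysis genes 6 were lower and 1 was higher, beside 19.7% and 21.2% of all genes (median log2 difference -0.45). GAPDH (0.69), PGK1 (0.75), LDHB (0.14) and the lactate transporter SLC16A1 (0.58) stood within 2-fold.

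PHGDH, the first enzyme of serine synthesis, was at 0.0308, 0, 0.106 and 0.0624 RPKM in late cells and between 65.9 and 230 (median 82.9) in hatched cells (6.81). PSAT1, the next enzyme of that path, was at 29.7, 76.4, 49.5 and 13.9 RPKM in late and between 230 and 865 (median 320) in hatched cells (3.14). ASNS, which makes asparagine, was at 0, 122, 26.4 and 0.406 RPKM in late and between 151 and 609 (median 230) in hatched cells (2.95, and 4.89 without late cell 9). The groups did not overlap for any of these 3. Of 14 measured one-carbon and serine genes 8 were higher and 1 was lower, beside 21.2% and 19.7% of all genes (median log2 difference 1.62). The summed level of the list was 628 to 988 RPKM in late and 1474 to 3311 in hatched cells. The lower member was GNMT, a methyltransferase that uses glycine (-2.90), which was no longer measured without late cell 9.

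Of 40 oxidative phosphorylation genes 34 stood within 2-fold, 1 was higher (NDUFA1 at 1.50) and 5 were lower, both smaller shares than the 21.2% and 19.7% of all genes. SDHC, a subunit of complex II, was at 54.6, 92.2, 60.4 and 55.5 RPKM in late and between 1.60 and 39.7 in hatched cells (-1.58). ATP5E, a small subunit of ATP synthase, was at 305, 458, 341 and 459 RPKM in late and between 50.5 and 301 in hatched cells (-1.50). Neither overlapped. Of 11 lipid and lipoprotein genes 0 were higher and 4 lower, beside the same 21.2% and 19.7%, and APOA1 led the lower ones.

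Epithelial genes differed in both directions, with CLDN4, KRT8 and ELF3 lower and KRT7 higher in hatched cells. CLDN4, a tight junction protein, was at 352, 479.5, 146 and 751 RPKM in late cells and at most 3.40 in hatched cells (-7.62). Early and middle cells ran from 144 to 1294, so the late cells lay in their range. KRT8, a keratin of simple epithelia, was at 1369.8, 1566, 1169 and 1520.1 RPKM in late and between 85.7 and 398 in hatched cells (-2.58), and ELF3, an epithelial ETS factor, was at 227, 208, 389 and 218 RPKM and between 9.43 and 76.0 (-2.92). No hatched cell reached any late cell for these 3. KRT18, the partner of KRT8, was at 2936, 1322, 1019.65 and 2226 RPKM in late and between 191 and 1552 (median 554) in hatched cells (-1.57), with overlap. KRT7, a further epithelial keratin, was at 3.16, 0, 0 and 0.0369 RPKM in late and between 1.90 and 34.9 (median 11.0) in hatched cells (3.31, and 4.14 without late cell 3). The keratin KRT19 (1.01), the cadherin CDH3 (1.49) and the tight junction protein OCLN (1.02) were higher as well. KRT19 fell below 2-fold without late cell 9 (0.60) or 14 (0.61) and stood at 0.031 without both, and OCLN stood at 0.65 without late cell 14 and at 0.74 without hatched cell 11.

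Of the factors of the trophectoderm, TEAD4 was lower (-1.67, with overlap), TFAP2C was higher (1.09), and GATA3 and GATA2 were not measured. TFAP2C was at 64.2 and 60.3 RPKM in late cells 3 and 15, at most 0.0557 in late cells 9 and 14 and between 9.20 and 143 in hatched cells, and it stood at 0.69 without late cell 9 or 14 and at 0.12 without both. GATA3 was at 3.99 RPKM in late cell 15, at most 0.261 in the other late cells and at most 9.53 in hatched cells, and GATA2 was at 5.06 RPKM in late cell 14, at most 0.133 in the others and at most 13.2 in hatched cells. Of 12 measured trophectoderm markers 5 were lower and 4 higher, beside 19.7% and 21.2% of all genes (median log2 difference 0.083). The summed level of all 26 was 3153 to 5600 RPKM in late, 835 to 2285 in hatched and 373 to 4464 in early and middle cells. KRT8 and KRT18, at the levels given above, made up most of each late sum, so it does not stand for the other markers. Of 25 adhesion, polarity and matrix genes 2 were higher and 12 lower, beside 21.2% and 19.7% of all genes (median log2 difference -0.91). EPCAM, an epithelial adhesion molecule, was at 542, 469.8, 549 and 487 RPKM in late and between 113 and 275 in hatched cells (-1.36). CTNND1, which stabilises cadherins (-1.66), and EZR, which links membrane and actin (-1.43), did not overlap between the groups either.

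**Figure D3:**
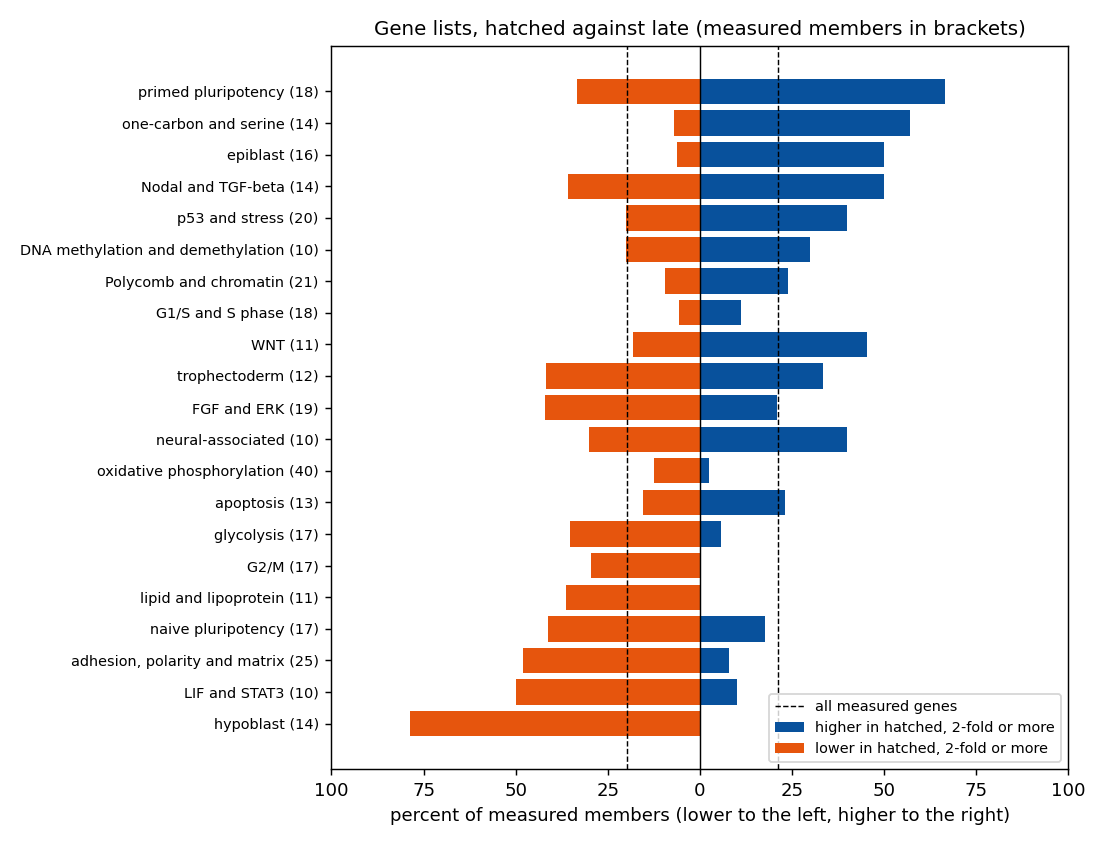
Percent of measured members (horizontal axis, lower to the left and higher to the right) at least 2-fold lower or higher in hatched than in late cells, for each gene list with 10 or more measured members (number in brackets), ordered by median. Dashed lines mark all measured genes, at 19.7% lower and 21.2% higher, and 11 of 14 hypoblast markers were lower while 12 of 18 primed and 8 of 14 one-carbon and serine genes were higher.

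Of 18 G1/S genes 2 were higher and 1 lower, both smaller shares than the 21.2% and 19.7% of all genes, with CCND3, a D-type cyclin, at 44.5, 18.1, 42.3 and 26.3 RPKM in late and between 51.7 and 220 in hatched cells (1.67), with no overlap. Of 17 measured genes of G2 and mitosis 5 were lower and 0 higher (median log2 difference -0.60), beside the same 19.7% and 21.2%. But 3 were higher and 2 lower without late cell 3 (0.069). TPX2, a spindle factor, was at 52.3, 34.8, 26.7 and 37.6 RPKM in late and between 0.0174 and 23.8 in hatched cells (-1.47), with no overlap. Late cell 3 had the highest summed level of G2/M genes among late cells, at 3774 RPKM against 881 to 1579 in the others and 441 to 3662 in hatched cells.

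Of 20 p53 and stress genes 8 were higher and 4 lower, beside 21.2% and 19.7% of all genes (median log2 difference 0.69). CHAC1, a target of the amino acid stress factor ATF4, was at most 0.0688 RPKM in late cells and between 0 and 125 (median 23.2) in hatched cells (5.17). DDIT4, a stress-induced inhibitor of mTOR signalling, was at 0, 0, 0.0918 and 7.34 RPKM in late and between 0.0342 and 113 (median 17.1) in hatched cells (3.55, and 5.02 without late cell 15). CDKN1A, a p53 target that stops the cell cycle, was listed at 0 in all late cells and reached 109 RPKM in hatched cells at a median of 0.193. The heat shock gene HSPA1A was lower (-2.75, and -3.50 without hatched cell 3), at 9.56 to 216 RPKM in late and 0 to 73.2 in hatched cells. Of 13 apoptosis genes 3 were higher and 2 lower, near the background on both sides.

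Of the genes of mesendoderm, GSC and EOMES were lower and T was higher in hatched cells. GSC, a factor of the organiser that Nodal induces, was at 13.8, 74.7, 108 and 11.0 RPKM in late cells and at most 0.862 in hatched cells (-5.54, and -4.91 without late cell 14), and early and middle cells ran from 0 to 107. EOMES, a T-box factor of mesendoderm and trophoblast, was at 11.4, 2.93, 12.1 and 9.35 RPKM in late and at most 0.0218 in hatched cells (-3.31), and it was listed at 0 in early and middle cells. Neither gene overlapped between the groups. T, the T-box factor brachyury, was at most 0.129 RPKM in late cells and reached 47.3 in hatched cells at a median of 0 (2.60, and no longer measured without hatched cell 1). Of 7 measured amnion and gastrulation genes 3 were higher and 3 lower, beside 21.2% and 19.7% of all genes. Of 5 genome activation genes 2 were higher and 2 lower, beside the same shares. ZNF280A was at 38.7, 60.8, 53.4 and 11.1 RPKM in late and at most 0.218 in hatched cells (-5.30).

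Most markers of cells outside the embryo were low, with LYZ, THY1 and COL1A2 as exceptions. The summed cumulus and granulosa markers were 0 in late and at most 3.89 RPKM in hatched cells, and all 6 sperm markers in the table were listed at 0 in the 13 cells. Of the blood markers, LYZ was at 42.6 and 9.50 RPKM in late cells 9 and 15, 0 in the other late cells and at most 28.4 in hatched cells, while 4 of 7 were at 0 in all 13 cells. The fibroblast markers summed to 1.49, 12.2, 159 and 8.96 RPKM in late cells 3, 9, 14 and 15 and to 88.0 to 417 in hatched cells, nearly all of it COL1A2, and 5 of 8 had means below 1 RPKM in both groups. COL1A2, a chain of type I collagen, was at 0, 12.2, 159 and 0.140 RPKM in late and between 88.0 and 417 in hatched cells (1.86, and 4.96 without late cell 14). THY1, a surface protein of fibroblasts and other cells, was at most 1.08 RPKM in late cells, at 108 in hatched cell 11 and listed at 0 in the other 8 hatched cells (3.34, and -0.37 without hatched cell 11). The part of these markers in the other differences was not tested.

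The 12 genes with the largest excess in hatched cells, at a mean of 20 RPKM or more and no overlap, were nearly absent from the 4 late cells of letter H. Several of them were present in late cells of letter G, as given below. SPP1, the secreted phosphoprotein osteopontin, was at most 0.204 RPKM in late cells and between 15.5 and 373 (median 188) in hatched cells (7.41). CSRP2, a LIM-domain protein, was at most 0.237 RPKM in late and between 50.7 and 215 in hatched cells (6.80). FXYD5, a regulator of the sodium pump, was at most 0.273 RPKM in late and between 55.6 and 199 in hatched cells (6.69). FEZ1, a transport adaptor of neurons, was at 4.68 RPKM in late cell 3, at most 0.118 in the other late cells and between 20.3 and 361 (median 256) in hatched cells (6.59, and 7.63 without late cell 3). ZSCAN10, a factor of pluripotent cells, was at most 0.0252 RPKM in late and between 20.0 and 134 in hatched cells (5.47). DDX4, a helicase of germ cells, was at most 0.0376 RPKM in late and between 2.37 and 99.3 (median 27.4) in hatched cells (5.34). The others were PHGDH, TAF9B (6.68), UBE2E2 (5.83), HIST1H2BJ (5.60), NUP62CL (5.41) and IL18, a cytokine that was listed at 0 in all 4 late cells and lay between 0.495 and 144 in hatched cells. TAF9B and HIST1H2BJ have close copies in the genome, so their reads may be split with others. In the 6 early and middle cells SPP1, FXYD5, FEZ1, IL18, ZSCAN10, NUP62CL and DDX4 were at most 0.279 RPKM. The other 5 were present in at least 1 of those cells, at up to 38.8 RPKM for PHGDH, 72.2 for CSRP2, 28.5 for TAF9B, 49.2 for UBE2E2 and 2.65 for HIST1H2BJ.

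The 12 genes with the largest deficit in hatched cells were led by APOA1, MT1B and CLDN4. MT1B, a metallothionein, was at 37.3, 827, 62.8 and 15.5 RPKM in late cells 3, 9, 14 and 15 and at most 0.733 in hatched cells (-7.63, and -5.04 without late cell 9), and it has near-identical copies. CMTM7, a membrane protein, was at 370.5, 217, 272 and 693 RPKM in late and at most 13.3 in hatched cells (-6.24), and early and middle cells held at most 58.1, so it was highest in the late cells. EDN3, an endothelin ligand, was at 22.4, 47.8, 36.4 and 16.6 RPKM in late cells, at most 0.0619 in hatched and at most 0.827 in early and middle cells (-4.97). LMNA, the A-type lamin of the nuclear envelope, was at 56.6, 36.0, 54.9 and 29.1 RPKM in late and at most 3.74 in hatched cells (-4.79). ANXA3 (-5.64, and -5.01 without late cell 9), IFT43 (-5.57) and STBD1 (-4.80, and -4.19 without late cell 15) complete the list with DUSP6, GSC and ZNF280A.

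**Figure D4:**
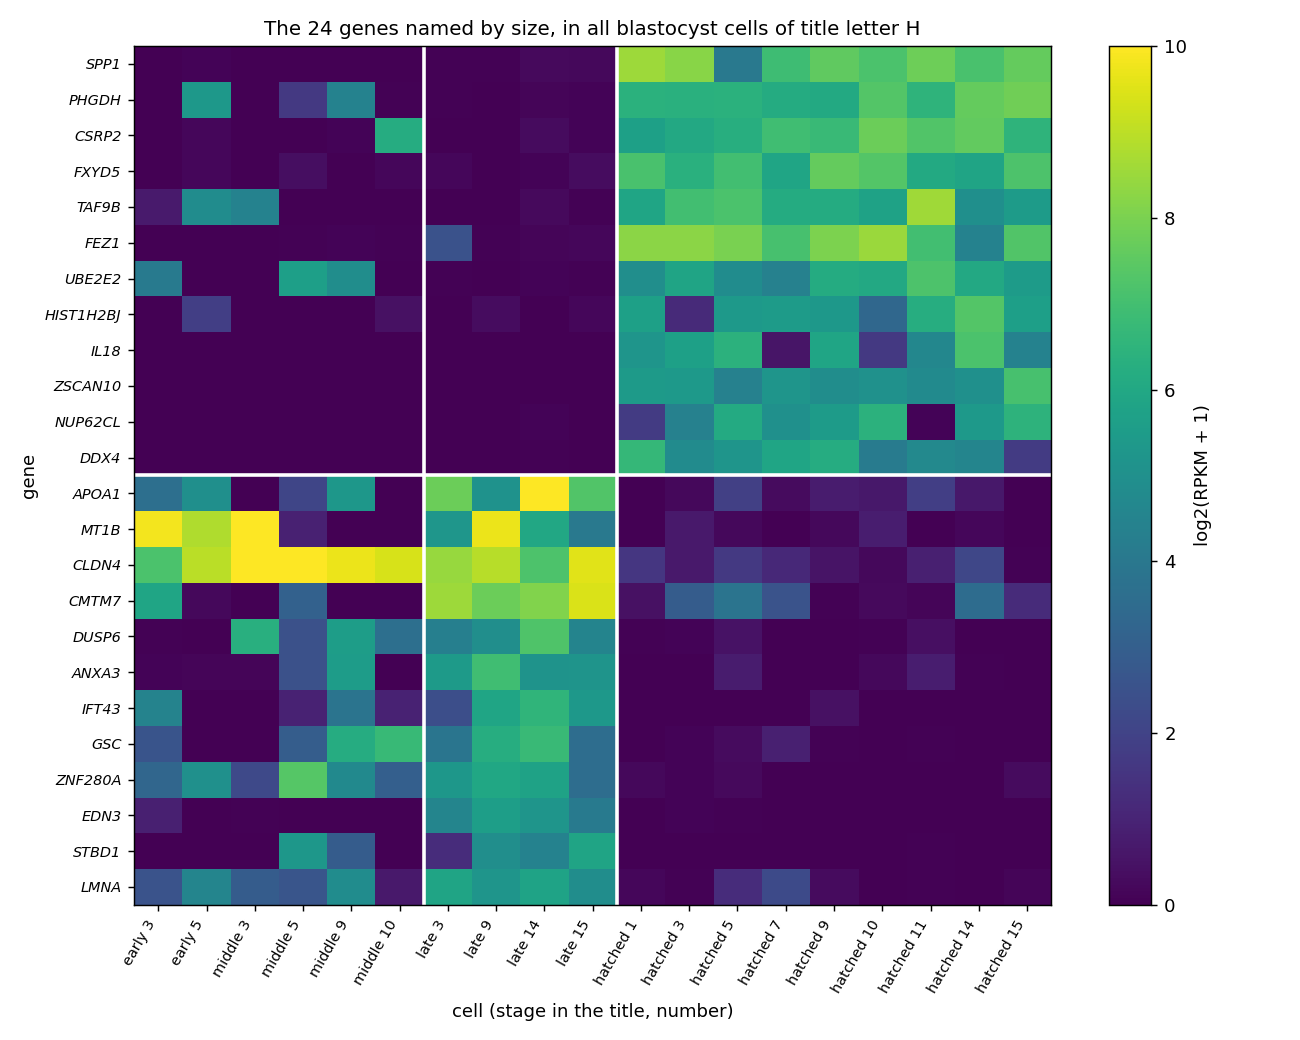
log2(RPKM + 1) as colour for the 12 genes with the largest excess (upper rows) and the 12 with the largest deficit (lower rows) in hatched against late cells without overlap, in 6 early and middle, 4 late and 9 hatched cells of letter H (columns). Among these cells of letter H, SPP1, FEZ1 and ZSCAN10 are highest in hatched cells, and CLDN4 is present in early, middle and late cells. EDN3 and CMTM7 are highest in the 4 late cells, and late cells of letter G are not shown.

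**Figure D5:**
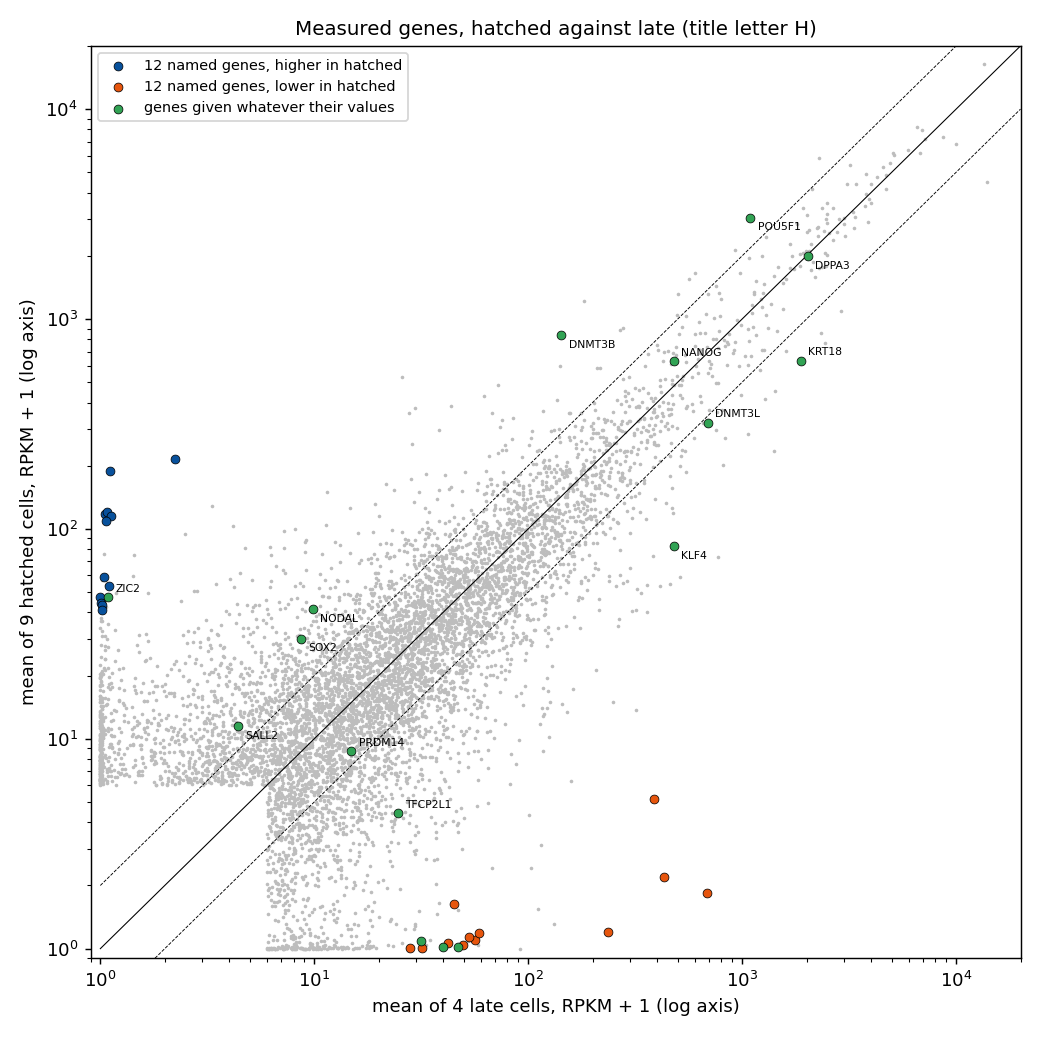
Mean RPKM + 1 of the 9 hatched cells (vertical log axis) against that of the 4 late cells (horizontal log axis) for the 7125 measured genes, with equality (solid) and 2-fold lines (dashed). POU5F1 and DNMT3B lie above the upper line, DPPA3 and NANOG between the lines, and KLF4, TFCP2L1 and KRT18 below the lower one.

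Late blastocyst cells of title letter G give a second set of levels. They were not split by lineage. In those with matching labels SOX17 reached 259 RPKM, GATA4 238 and APOA1 4139, at medians of 0.0739, 0.182 and 1.01. In the 10 whose title and source name both say late, KLF4 had a median of 24.2 RPKM (0.0794 to 241), CLDN4 of 0.179 (0 to 1.77), DNMT3B of 461 (121 to 780.3), POU5F1 of 5353 (56.9 to 9054) and ZIC2 of 278 (14.4 to 1157). Each late cell of letter H lay above all 10 for KLF4 and CLDN4 and below all 10 for ZIC2. In the 5 cells of letter G whose labels conflict as those of the late H cells do, GATA2 ran from 349 to 936 RPKM, POU5F1 from 0 to 87.2 and CLDN4 from 160 to 707. The late H cells lay below these 5 for GATA2 and above them for POU5F1, and their CLDN4 levels overlapped. Stage and letter cannot be told apart across letters.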

How the data were processed

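Single-cell libraries of poly(A) RNA were amplified by PCR and read as single ends, per the labels' protocols, which mention no molecular identifiers, so PCR copies cannot be told from molecules. The deposited table gives 1 value per gene symbol and cell for 16049 genes and 95 cells and names no unit. The values were read as RPKM made by the authors, from their totals per cell and from the most frequent ratio of low values between 2 cells. Only part of the low values share that ratio. Against hatched cell 1 it was shared by 27 of 636 genes for late cell 9 and by 101 of 1007 for hatched cell 15. Per the submitters' processing notes, TopHat2 version 2.1.0, FastQC, HTSeq and DESeq2 were among the tools, and the genome build and annotation are not given in the sources used here. No coordinates or sequences are therefore printed. Of the symbols, 14282 are in a RefSeq gene table of the species. Every column bears the title of 1 sample, with 0 left unmatched.

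Group means, log2 ratios with a pseudocount of 1 RPKM, counts and correlations were computed in Python 3.11.15 with pandas 2.3.3, numpy 2.4.6 and scipy 1.17.1, and the calculation was checked on simulated data. The unit allows no count test and the design no replicate, so no p-value is given. A mean of 5 RPKM in either group made a gene measured, and 2-fold made it higher or lower. Named genes are the 12 of largest log2 ratio in each direction without overlap between cells and with a mean of 20 RPKM or more, up to 4 members of each of 31 lists past 2-fold, and 23 lineage and pluripotency genes whatever their values. Some genes of these sets are not reported here. SLC16A1, APOE, FN1, COL4A2, KRT19, CDH3, OCLN, TEAD4, TFAP2C, FGFR2, ACVR1B, TGFBR1, SMAD2, SMAD4, T, GAPDH, PGK1 and LDHB were added after their values were seen. The cells and the lists were chosen with earlier results of these data known. Alternatives were other pseudocounts, filters, averages and scalings, each cell left out, and the 6 early and middle blastocyst cells in place of the late ones.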

Additional observations from a re-analysis of the deposited data

Results flagged for a closer look

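Among 88 sets of values (each of 40 measured genes named by size or as lineage and pluripotency genes, and 4 technical measures, in the late and in the hatched cells), 15 had 1 cell that stood apart from the rest of its group by Dixon's criterion on log2(RPKM + 1). A rate of 1 in 20 would give 4.4, but it assumes independent, normally spread values. Many values here are at or near 0 and many genes were picked by size, so the 15 cannot be read against that rate. In late cells these were PRDM14 in late cell 15 at 55.3 RPKM, SALL2 in late cell 15 at 13.7, NODAL in late cell 3 at 35.0 and FEZ1 in late cell 3 at 4.68, each high against late cells near 0. ZSCAN10 in late cell 3 at 0.0252 RPKM and NUP62CL in late cell 14 at 0.0692 were set apart only from exact zeros.

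In hatched cells, SPP1 was low in hatched cell 5 at 15.5 RPKM, FEZ1 in hatched cell 14 at 20.3, SOX2 in hatched cell 14 at 0.707 and DNMT3B in hatched cell 11 at 392. ZSCAN10 was high in hatched cell 15 at 134 RPKM. IFT43 in hatched cell 9 at 0.373 RPKM, GSC in hatched cell 7 at 0.862, STBD1 in hatched cell 11 at 0.0301 and SOX17 in hatched cell 5 at 0.134 stood apart from cells at or near 0. None of the 4 technical measures (summed RPKM, genes at 1 RPKM, relative depth and the share of the top 50 genes) set a cell apart in either group.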

How the results depend on the processing

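No paired analysis was possible because no result comes from a test, and the numbers that late and hatched cells share (3, 9, 14 and 15) are title numbers with no stated link. Of 562 recomputed summary values, 510 stayed within the cell-to-cell spread or, for counts, within 1.5 times, and 52 moved. Of 875 recomputed values of single genes 80 moved, and 0 changed sign among named genes past 2-fold for as long as they stayed measured. Whether still measured or not, 15 of 186 named genes and list members past 2-fold changed sign without 1 cell (10) or without late cells 9 and 14 (9), with SOX17, TBX3, NID2, SKIL, T, THY1 and LYZ among those named. SKIL stood at 0.085 without late cells 9 and 14, LYZ at 0.23 without late cell 9 and T at -0.035 without hatched cell 1.

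The count of higher genes was 2458 with no filter, 615 at a mean of 20 RPKM or more, where 731 were lower, and 2350 with early and middle in place of late cells, where 167 higher and 75 lower genes did not overlap. Without late cells 9 and 14 together, 182 higher and 332 lower genes did not overlap. With single cells left out these ran from 90 to 128 and from 143 to 209, and fewer cells raise such counts by construction.

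The hypoblast median was -5.88 and -1.94 with pseudocounts of 0.1 and 5 RPKM, -0.75 with no filter, -5.01 at 20 RPKM and -1.11 without late cells 9 and 14. With no filter the medians were 0.0093 for Nodal, -0.14 for DNA methylation and 0.042 for glycolysis genes. At 20 RPKM they were -0.028 for naive, -0.80 for trophectoderm, 1.66 for Nodal, -1.71 for LIF, 0.012 for DNA methylation and -0.19 for glycolysis genes. With the mean of log2 values they were 1.04 for WNT, -0.19 for glycolysis and -0.81 for apoptosis genes. With medians over cells they were -0.12 for naive, -0.89 for trophectoderm, 0.049 for Nodal, -1.72 for LIF, -1.39 for adhesion and -0.81 for apoptosis genes. Without late cells 9 and 14 they were 0.028 for Polycomb, -0.23 for glycolysis and -0.74 for neural-associated genes. With single cells left out they ran from -1.12 to -0.10 for naive, 0.013 to 1.28 for Nodal, -0.069 to 1.14 for WNT, -0.50 to -0.033 for glycolysis and -0.54 to 0.15 for neural-associated genes. The cause of these shifts was not tested, beyond the number of cells or genes each choice leaves.

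The correlation of late cell 9 with hatched cells minus that with early and middle cells was -0.060 over genes at 50 RPKM or more. The depth in reads is unknown, so no limit for a value of 0 can be given. No embryo is named for the 4 and 9 cells, so stage and embryo cannot be told apart.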
